A study of Saccharomyces cerevisiae S288C with 24 samples.

Results

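The response of tryptophan-fed wild-type yeast to isobutanol was measured by RNA sequencing. The 3 libraries of WT + IB + Trp were set against the 3 libraries of WT + Trp, which are 6 of the 24 libraries of the series, and each of the 6905 loci with a complete estimate was considered. WT is *Saccharomyces cerevisiae* BY4741, a haploid laboratory strain that carries deletions of *HIS3*, *LEU2*, *MET17* and *URA3*. Cultures were grown in the rich medium YPD and harvested after 24 h. WT + IB + Trp received 1.2% isobutanol and 200 µg/ml tryptophan, and WT + Trp received 200 µg/ml tryptophan alone, so that both groups had the amino acid and the alcohol alone differed between them. The comparison asks what isobutanol changes in cells that are not short of tryptophan. It was set beside the same contrast without tryptophan (WT + IB against WT) and beside the contrast with tryptophan in Sc12 (Sc12 + IB + Trp against Sc12 + Trp), a strain of the same background that lacks *TRP5* and with it tryptophan synthase. The sources used here do not say that the replicates came from separate cultures. The p-values therefore cover the spread among these libraries, which may be technical. Every culture was sampled once, after 24 h, and an effect of isobutanol cannot be told apart from an effect of a different growth stage at that time.

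Isobutanol is a fusel alcohol, which yeast itself makes in small amounts from valine, and at high concentration it disturbs membranes and slows growth. A yeast culture that has used up its glucose stops dividing, lowers the mRNAs of ribosomal proteins and glycolytic enzymes, stores trehalose and glycogen, and induces heat shock and stress genes, many of them through the factors Msn2 and Msn4, which bind the stress response element. Haploid MATa cells make the pheromone a-factor and a receptor for the pheromone of the other mating type. The factor Ste12 acts on genes of the pheromone response through the pheromone response element. Tryptophan is both an amino acid of proteins and the start of the kynurenine pathway, by which yeast makes NAD.

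The 3 WT + IB + Trp libraries held 9740211 to 10391428 fragments in the loci used, and the 3 WT + Trp libraries held 13192425 to 14580261. Levels are given as CPM, fragments of a locus per 1000000 fragments of the library after TMM scaling, and the spread of the 24 libraries corresponds to a biological coefficient of variation of 10.4%. *LEU2*, *MET17* and *URA3* had 0 fragments in all 24 libraries, as the genotype states, and *HIS3* could not be read because its locus is joined with *DED1*. The MATa receptor gene *STE2* was present, with 439 to 569 fragments in WT + IB + Trp and 6836 to 8711 in WT + Trp. The 4 MATalpha marker genes were not at 0: in WT + IB + Trp they had 256 to 338 (*STE3*), 46 to 57 (*MF(ALPHA)1*), 94 to 133 (*MF(ALPHA)2*) and 803 to 922 fragments (*SAG1*), and in WT + Trp 138 to 157, 25 to 33, 258 to 310 and 3131 to 3775 fragments. Replicate 2 of WT + IB + Trp differed most from its group, and replicate 3 nearly as much. The log2 levels of replicate 2 differed on average by 0.266 from the mean of the other 2 libraries, against 0.223 for replicate 3 and 0.126 for replicate 1. For the WT + Trp libraries these values were 0.106 to 0.168. The count of a gene list without replicate 2 is given where that count moved by more than 1.5 times. List counts without replicate 3 were not run.

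Of the 6346 loci tested, 708 were higher in WT + IB + Trp (11.2% of the loci tested) and 543 were lower (8.56%). A locus was called when its absolute log2 fold change exceeded 1 and its adjusted p fell below 0.05 in the quasi-likelihood test of edgeR, with Benjamini-Hochberg adjustment over all loci tested. These shares are the background for the count of each gene list, and a list with a like share of calls does not stand apart from the other loci. Without the fold threshold 4352 loci passed. The libraries of the groups did not overlap at 4279 loci (67.4%), among them 1241 of the 1251 called. Separation of the libraries at a called gene, where it is given below, is therefore no further support for the call. The median log2 fold change over all loci was 0.01, and with library totals in place of TMM it was -0.07 and the calls were 621 higher and 641 lower. Without replicate 2 of WT + IB + Trp, 658 loci were higher and 512 lower. Among the called loci, 133 rose and 85 fell by more than 2 on the log2 scale. Of the 1251 called, 205 overlap another locus, and as the library kit is not stated to mark the strand, their fragments cannot be told apart from those of the partner.

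The 12 largest rises and the 12 largest falls, taken among called single-gene loci of at least 10 CPM whose libraries do not overlap, span several functions, as the plot of the most changed genes shows. *TDH1*, an isozyme of the glycolytic enzyme glyceraldehyde-3-phosphate dehydrogenase (chrX:338271-339269), had 13839, 20065 and 7150.5 CPM in WT + IB + Trp, against 812, 938 and 694 CPM in WT + Trp, a log2 fold change of 4.07 ± 0.31 (SE; edgeR adjusted p = 7.89e-11). *SSA3*, a stress-induced cytosolic Hsp70 chaperone (chrII:84499-86448), had 211, 170.5 and 274 CPM in WT + IB + Trp, against 4288, 4302 and 4054 CPM in WT + Trp, a log2 fold change of -4.27 ± 0.20 (SE; edgeR adjusted p = 4.35e-14). The WT + IB + Trp replicates of *TDH1* varied widely, lowest in replicate 3 and highest in replicate 2. The other large rises were those of *YJL218W*, *ANB1* (an isoform of translation factor eIF5A made at low oxygen), *TIR1* (a cell wall mannoprotein made in the cold and at low oxygen), *PSA1* (GDP-mannose pyrophosphorylase), *YLR120W-A*, *SSU1* (the sulfite exporter), *REE1*, *BNA1*, *DSE2*, *YFL012W* and *YNL277W-A*. The other large falls were those of *PRM6*, *AGA2*, *SIP18*, *DPC7*, *FMP16*, *STE2*, *SOL4*, *RTN2*, *AGA1*, *BAR1* and *SGA1*. *YLR120W-A* overlaps *YPS3*, the gene of a yapsin protease that also rose (log2 fold change 1.54), and its fragments cannot be told apart from those of *YPS3*.

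**Figure D1:**
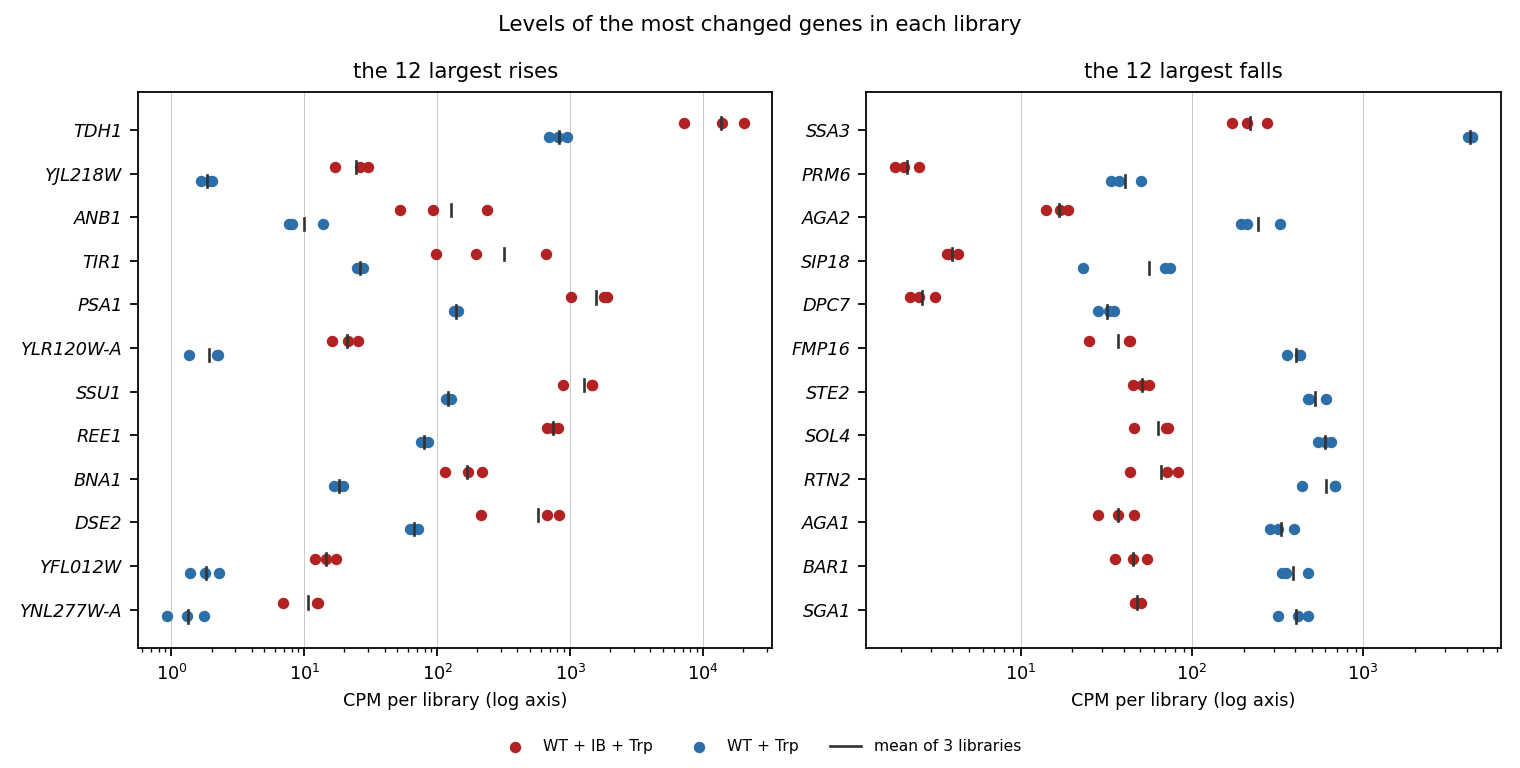
Levels in CPM (log axis) of the 12 genes with the largest rises (left) and the 12 with the largest falls (right) among called single-gene loci of at least 10 CPM whose groups do not overlap; each point is 1 library, WT + IB + Trp in red and WT + Trp in blue, and the bar is the mean of 3 libraries. The choice of the genes fixed that the groups are separated; log2 fold changes run from 4.07 (*TDH1*) to -4.27 (*SSA3*).

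All 7 a-specific genes, which are expressed in MATa cells only, were lower in WT + IB + Trp, with a median log2 fold change of -2.99 against 0.01 over all loci tested. Together they took 0.0196%, 0.0164% and 0.024% of the fragments in WT + IB + Trp, against 0.162%, 0.217% and 0.168% in WT + Trp. *STE2*, the receptor for alpha-factor, had 51.1, 45.3 and 56 CPM in WT + IB + Trp and 476, 604 and 485 CPM in WT + Trp (log2 fold change -3.36 ± 0.12, SE; edgeR adjusted p = 1.09e-15). *AGA2*, the binding subunit of the MATa agglutinin, had 17.1, 14.1 and 18.9 CPM in WT + IB + Trp and 194, 325 and 211 CPM in WT + Trp. Both genes are among the 12 largest falls, whose choice fixed that the libraries do not overlap. *BAR1*, the protease that degrades alpha-factor, fell by 3.10 on the log2 scale, the a-factor genes *MFA1* and *MFA2* by 2.97 and 2.99, their exporter *STE6* by 2.74 and *ASG7* by 2.48.

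Of 33 further genes of the pheromone response and of cell fusion, 13 were lower, 0 were higher, and the median log2 fold change was -0.86. *PRM6*, a pheromone-regulated potassium transporter, had 2.1, 1.86 and 2.56 CPM in WT + IB + Trp and 33.6, 50.3 and 37.4 CPM in WT + Trp (log2 fold change -4.21 ± 0.20, SE; edgeR adjusted p = 4.7e-14). *AGA1*, the cell wall anchor of the agglutinin, had 36.9, 28.5 and 45.9 CPM in WT + IB + Trp, against 319, 394 and 285 CPM in WT + Trp. *FUS1*, needed for cell fusion, had 26.8, 20.4 and 21.7 CPM in WT + IB + Trp, against 131, 159.6 and 138 CPM in WT + Trp. The libraries did not overlap at the 3 genes, which the choice of the 12 largest falls fixed for *PRM6* and *AGA1*. *KAR4* and *KAR5*, needed for nuclear fusion, fell by 2.38 and 1.86 on the log2 scale, and *FIG1* and *FIG2* by 2.36 and 2.26. The signalling genes fell less: *GPA1* (the G protein alpha subunit) by 1.97, *SST2* (its GTPase activator) by 1.80 and *STE12* by 1.56. The remaining members that were called were *PRM1*, *PRM5* and *FUS2*.

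The upstream sequences of 6 of these genes are shown because they hold the pheromone response element of Ste12, TGAAACA, on either strand. They were read from the S288C reference R64, the assembly that the files' build sacCer3 stands for, and run 5′ to 3′ on the strand of the gene, from 250 to 91 bases before the start codon. Capitals mark each match to TGAAACA or to its reverse complement TGTTTCA. The positions are chrXIII:181166-181325 (minus strand) for *PRM6*, chrXIV:703449-703608 (plus) for *AGA1*, chrIII:71553-71712 (plus) for *FUS1*, chrIII:27679-27838 (plus) for *KAR4*, chrVII:436924-437083 (minus) for *AGA2* and chrVI:82330-82489 (plus) for *STE2*.
PRM6: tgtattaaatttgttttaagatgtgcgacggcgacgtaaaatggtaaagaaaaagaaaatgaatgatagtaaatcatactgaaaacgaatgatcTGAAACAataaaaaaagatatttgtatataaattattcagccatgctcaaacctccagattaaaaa
AGA1: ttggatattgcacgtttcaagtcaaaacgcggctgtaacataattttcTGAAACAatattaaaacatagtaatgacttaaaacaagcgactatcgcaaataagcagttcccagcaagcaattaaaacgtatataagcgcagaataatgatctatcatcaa
FUS1: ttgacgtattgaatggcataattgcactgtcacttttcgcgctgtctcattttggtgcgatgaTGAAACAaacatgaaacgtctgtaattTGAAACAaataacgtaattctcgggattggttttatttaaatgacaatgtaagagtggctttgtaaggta
KAR4: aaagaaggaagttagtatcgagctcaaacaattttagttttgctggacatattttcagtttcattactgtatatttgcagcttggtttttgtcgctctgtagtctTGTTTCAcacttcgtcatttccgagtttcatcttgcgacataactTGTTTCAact
AGA2: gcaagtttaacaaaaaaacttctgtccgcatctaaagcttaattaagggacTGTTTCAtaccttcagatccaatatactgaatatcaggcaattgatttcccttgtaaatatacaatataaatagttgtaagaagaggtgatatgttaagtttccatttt
STE2: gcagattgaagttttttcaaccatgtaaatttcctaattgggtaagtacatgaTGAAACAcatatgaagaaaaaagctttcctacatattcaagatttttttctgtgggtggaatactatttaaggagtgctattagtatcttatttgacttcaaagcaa
Over the whole 250 bases it was found before 5 of the 7 a-specific genes and 14 of 31 genes of the pheromone list with a promoter that could be read, against 6.07% of 6001 promoters of the genome. It was found before 8.41% of the loci called lower and 5.06% of those called higher. A match is a description of the letters and not evidence of a bound site.

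Most genes of the cytosolic ribosome moved the other way. Of 137 ribosomal protein genes, 102 were higher in WT + IB + Trp and 1 was lower, with a median log2 fold change of 1.47. They took 2.9%, 4.44% and 2.56% of the fragments in WT + IB + Trp, against 1.38%, 1.46% and 1.49% in WT + Trp, so that replicate 2 held the highest share and all 3 exceeded every WT + Trp library. Without replicate 2, 82 were higher and 1 lower. *RPL3* had 2092, 4196 and 1498 CPM in WT + IB + Trp and 379, 353 and 398 CPM in WT + Trp (log2 fold change 2.79 ± 0.24, SE; edgeR adjusted p = 6.47e-10). The rise exceeds the spread of the libraries, which is wide among the WT + IB + Trp replicates. *RPL31A* and *RPL31B*, a pair of gene copies, rose by 2.70 and 2.79. *RPS12* was the exception: it had 363, 701 and 325 CPM in WT + IB + Trp and 1197, 1176 and 1236 CPM in WT + Trp (log2 fold change -1.38). For 10 of the 137 loci more than 50% of the 50-base windows recur elsewhere in the genome, and counts of such copies may be shared.

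The machinery around the ribosome moved less. Among 69 ribosome biogenesis factors 4 were higher (*MAK16*, *RLP24*, *RPA34* and *UTP23*), 0 were lower and the median log2 fold change was 0.15. *RPA34* and *UTP23* lost their calls without replicate 2 of WT + IB + Trp, which left 2 higher. Of 20 cytosolic aminoacyl-tRNA synthetases, which load amino acids onto tRNA, 5 were higher and 0 lower, led by *GUS1* for glutamate (719, 943 and 629 CPM in WT + IB + Trp, against 216, 207 and 197 CPM in WT + Trp) and *KRS1* for lysine. Without replicate 2 of WT + IB + Trp, 2 of these synthetase genes were called. Of 68 mitochondrial ribosomal proteins 9 were higher and 0 lower, with a median of 0.26. The share higher is near the 11.2% over all loci tested.

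Glycolytic genes took a larger share of the fragments in WT + IB + Trp. Of 24 glycolytic loci 12 were higher and 1 was lower, and the list took 9.93%, 13% and 7.28% of the fragments in WT + IB + Trp, against 3.42%, 4.18% and 3.4% in WT + Trp. *PGK1* (phosphoglycerate kinase) had 9499, 14260.4 and 5908 CPM in WT + IB + Trp and 1598, 2034 and 1589 CPM in WT + Trp (log2 fold change 2.51 ± 0.26, SE; edgeR adjusted p = 1.05e-08). The enolase genes *ENO1* and *ENO2* rose by 2.49 and 2.50, hexokinase *HXK2* by 1.74, aldolase *FBA1* by 1.60, *GPM1* by 1.52, *TDH3* by 1.51 and pyruvate kinase *CDC19* by 1.50. The libraries of all these genes were separated, and replicate 3 of WT + IB + Trp was the lowest of its group at all but *HXK2*. The gene that fell, the enolase-related *ERR3*, was near the detection limit, at 0.763, 0.103 and 0.394 CPM in WT + IB + Trp, against 3.36, 2.91 and 3.62 CPM in WT + Trp. *ADH1*, the main fermentative alcohol dehydrogenase, had 4977, 7053 and 3172 CPM in WT + IB + Trp and 1629.7, 1874 and 1591 CPM in WT + Trp, and *ADH5* rose by 2.19. The pyruvate decarboxylases *PDC1*, *PDC5* and *PDC6* had log2 fold changes of 0.37, 0.19 and 0.26 and were not called. Among 18 alcohol and aldehyde dehydrogenases 4 were higher and 3 lower, the largest fall being that of the aldehyde dehydrogenase *ALD3* (log2 fold change -2.77).

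*REE1*, a regulator of *ENO1* counted in the glycolysis list, had 811, 739 and 665 CPM in WT + IB + Trp and 74.8, 84.4 and 79.5 CPM in WT + Trp (log2 fold change 3.21 ± 0.15, SE; edgeR adjusted p = 4.79e-14). Its neighbour *YJL218W* had 30.1, 16.9 and 26.3 CPM in WT + IB + Trp, against 2, 1.66 and 1.91 CPM in WT + Trp (log2 fold change 3.71). Both loci stand side by side on chromosome X, at chrX:23133-23729 and chrX:21973-22563. The choice of the 12 largest rises fixed that each was separated between the groups. Sugar transport was mixed. Of 23 hexose transporters and sensors 5 were higher and 6 lower: *HXT10*, *HXT14*, *HXT9*, *HXT3* and *HXT6* rose, and *HXT5* (log2 fold change -2.03), *HXT13*, *HXT4*, the glucose sensor *RGT2* (-1.76) and the glucose signalling regulators *MTH1* and *STD1* fell. *HXT6* (log2 fold change 1.18) has a near-identical copy, *HXT7* (-0.68, not called), and their fragments may be shared. *HXT3*, a low-affinity transporter, had 681, 752 and 674 CPM in WT + IB + Trp and 239.8, 391 and 243 CPM in WT + Trp. Invertase *SUC2*, which splits sucrose, had 3544, 2983 and 1919.6 CPM in WT + IB + Trp, against 945, 1010.1 and 893 CPM in WT + Trp.

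**Figure D2:**
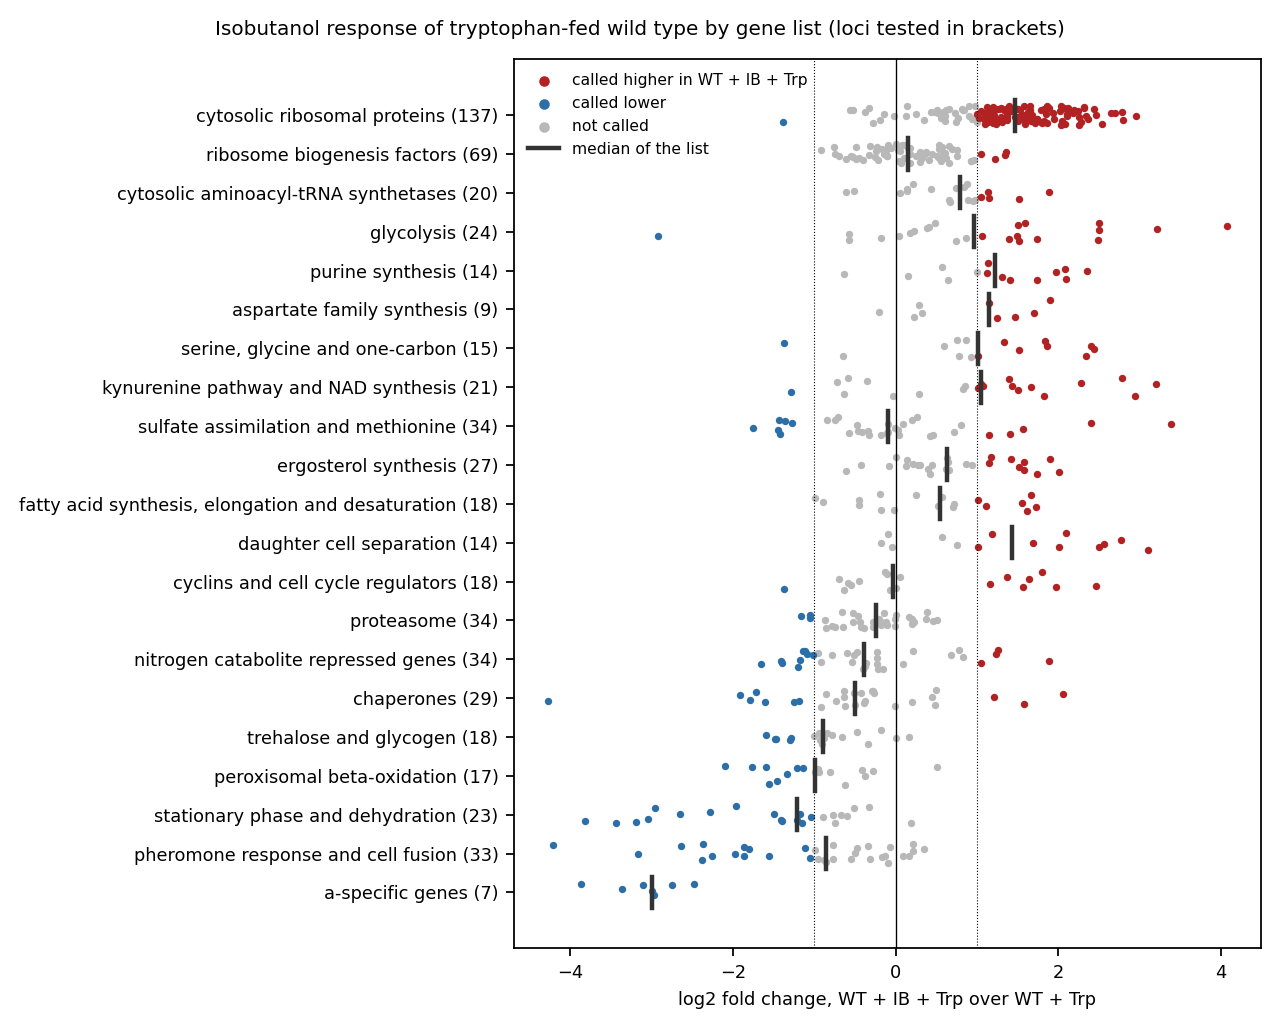
Log2 fold change of WT + IB + Trp over WT + Trp for the members of 21 gene lists; each point is 1 locus, red when called higher and blue when called lower, dotted lines stand at 1 and -1, and the bar is the median of the list. Medians run from 1.47 for cytosolic ribosomal proteins to -2.99 for a-specific genes.

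Some of the cyclins and most of the genes of daughter cell separation were higher. Of 18 cyclins and cell cycle regulators 7 were higher, all of them cyclins: *CLN1*, *CLN2*, *PCL1* and *PCL9*, which act around G1, *CLB5* and *CLB6* of S phase, and *CLB1* of mitosis. *CLN2* had 270.0, 215 and 317 CPM in WT + IB + Trp and 52.6, 46.5 and 46.2 CPM in WT + Trp (log2 fold change 2.46 ± 0.14, SE; edgeR adjusted p = 5.93e-13), and *WHI5*, a repressor of the start of the cell cycle, was the single member that fell (-1.37). The median of the list was -0.03, and *CLN3* (log2 fold change 0.06), *PCL2* (-0.13), *CLB2* (-0.55), *CLB3* (-0.45) and *CLB4* (-0.59) were not called. Among 14 genes of daughter cell separation 9 were higher and 0 lower. *DSE2*, a wall glucanase-like protein of daughter cells, had 673, 211 and 828 CPM in WT + IB + Trp and 71.2, 62.3 and 65.5 CPM in WT + Trp, and *EGT2* had 492, 162 and 536 CPM in WT + IB + Trp, against 74.2, 61.4 and 66.6 CPM in WT + Trp. At both genes replicate 2 of WT + IB + Trp was the lowest of its group and still above each WT + Trp library. The 10 histone loci split, with *HTB2* and *HHF2* higher and *HHT1* and *HTB1* lower.

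Several cell wall genes rose as well. Of 29 genes of wall integrity and chitin 6 were higher and 1 was lower, among them *PST1* (928, 308 and 1068 CPM in WT + IB + Trp, against 155, 160.1 and 158 CPM in WT + Trp), the glucanosyltransferase *GAS1* (log2 fold change 2.15) and the kinase *SLT2* of the wall integrity pathway (1.31). In the fit without replicate 2 of WT + IB + Trp 2 of the list were lower. Of 19 wall mannoproteins 7 were higher and 1 was lower. *TIR1* had 194, 655 and 97.6 CPM in WT + IB + Trp and 25.4, 24.9 and 27.7 CPM in WT + Trp (log2 fold change 3.60 ± 0.47, SE; edgeR adjusted p = 3.57e-07). *CCW12*, an abundant wall protein, had 6137, 7536 and 4590.1 CPM in WT + IB + Trp, against 1388, 1429.9 and 1372 CPM in WT + Trp, while *TIP1* fell by 2.04. The groups were separated at all 3 genes, which the choice of the 12 largest rises fixed for *TIR1*. The WT + IB + Trp libraries had a wide spread at *TIR1*. *PSA1*, which makes the mannose donor for these proteins, had 1892, 1003 and 1784 CPM in WT + IB + Trp and 142, 133 and 138 CPM in WT + Trp. Of 10 loci of flocculins and filamentous growth 3 were lower (*FLO10*, *FLO11* and *PHD1*) and 0 higher.

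Of 27 genes of ergosterol synthesis, the sterol of yeast membranes, 9 were higher and 0 lower, with *ERG3* at 583, 568 and 587 CPM in WT + IB + Trp, against 151, 165 and 148 CPM in WT + Trp (log2 fold change 1.90 ± 0.10, SE; edgeR adjusted p = 1.57e-13). *UPC2*, the factor that drives these genes when sterols run low, rose by 2.01. Of 18 genes of fatty acid synthesis, elongation and desaturation 6 were higher and 0 lower: the synthase subunit *FAS2* (log2 fold change 1.72), the elongases *ELO3* and *ELO2*, the desaturase *OLE1* (1.56), *ACC1* and *PHS1*. With library totals 5 were higher and 1 lower. Of 16 genes of inositol and phospholipid synthesis 3 were higher (*INM1*, *CHO2* and *HNM1*) and 0 lower. *ACC1*, acetyl-CoA carboxylase, had 1087, 559 and 1259.5 CPM in WT + IB + Trp and 516, 397 and 432 CPM in WT + Trp. Its replicate 2 lies near the WT + Trp range, and the groups do not overlap. The call of *ACC1* was lost without WT + IB + Trp replicate 3 and with limma on log2(FPKM + 1). In peroxisomal beta-oxidation 8 of 17 genes were lower and 0 higher, led by the thiolase *POT1* (93.7, 64 and 103 CPM in WT + IB + Trp, against 356, 376 and 389 CPM in WT + Trp), the acyl-CoA oxidase *POX1* (-1.76) and *FOX2* (-1.60).

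Of 21 loci of the kynurenine pathway and NAD synthesis 12 were higher and 1 was lower, with a median log2 fold change of 1.05. *BNA1*, 3-hydroxyanthranilate dioxygenase (chrX:471138-471671), had 170.2, 218 and 115 CPM in WT + IB + Trp and 16.7, 19.4 and 18.4 CPM in WT + Trp (log2 fold change 3.20 ± 0.17, SE; edgeR adjusted p = 2.21e-13). *BNA4*, kynurenine 3-monooxygenase, had 218, 233 and 158 CPM in WT + IB + Trp, against 25.4, 23.9 and 30.3 CPM in WT + Trp, and *BNA6*, quinolinate phosphoribosyltransferase, had 1063, 954 and 796 CPM in WT + IB + Trp, against 127, 150.0 and 132 CPM in WT + Trp. The libraries did not overlap at the 3 genes, which the choice of the 12 largest rises fixed for *BNA1*. The locus that joins *BNA2*, the first enzyme of the pathway, with *YJR079W* rose by 2.28, *BNA5* by 1.82, the nicotinic acid transporter *TNA1* by 1.39 and *BNA7* by 1.05, whereas the nicotinamidase *PNC1* fell by 1.29. *QNS1* (log2 fold change 0.29) and the locus of *NMA2* (-0.03), which complete NAD, were not called.

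In the synthesis of tryptophan and the other aromatic amino acids 4 of 13 genes were higher and 0 lower. They were *ARO4*, the tyrosine-inhibited first enzyme of the shikimate pathway (159.8, 209 and 129 CPM in WT + IB + Trp, against 41.3, 37 and 36.2 CPM in WT + Trp), *ARO1*, *ARO2* and *TRP4*. *ARO2* and *TRP4* were called at log2 fold changes of 1.07 and 1.03 and lost the call under library totals. *ARO2* also lost it without WT + IB + Trp replicate 2. *TRP4* also lost it with limma on log2(FPKM + 1) and without WT + Trp replicate 3, WT + IB + Trp replicate 1 or WT + IB + Trp replicate 3. *TRP5*, which is intact in WT, had 294, 301 and 354 CPM in WT + IB + Trp and 502, 517 and 462 CPM in WT + Trp, and its log2 fold change of -0.64 was under the threshold. The 7 genes of aromatic amino acid breakdown to fusel alcohols had log2 fold changes between -0.64 and 0.89, under the threshold, and without replicate 2 of WT + IB + Trp 1 was called higher. *TAT2*, a tryptophan permease, had 162, 139 and 174 CPM in WT + IB + Trp, against 107, 94.8 and 101 CPM in WT + Trp. Its log2 fold change of 0.65 was also under the threshold. *TAT1* rose by 1.46 and *BAP3* by 1.59, and the study lists tryptophan and tyrosine among the substrates of both. *GAP1*, which the study lists for all natural amino acids, fell by 1.40. Of 31 amino acid permeases 6 were higher (*OPT2*, *BAP3*, *AVT7*, *TAT1*, *HIP1* and *AVT5*) and 3 lower (*SAM3*, *GAP1* and *UGA4*). *DIP5*, the permease of acidic amino acids, had 449, 226 and 689 CPM in WT + IB + Trp and 385, 356 and 343 CPM in WT + Trp, so that its groups overlap, and *GNP1* (log2 fold change -0.05) was not called either.

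Other amino acid pathways had some members that rose. Of 9 genes of the aspartate family 5 were higher and 0 lower (*THR1*, *ASN1*, *HOM6*, *HOM3* and *HOM2*), of 12 of the branched-chain list 4 were higher (*BAT2*, *ILV3*, *ILV1* and *ILV6*) and of 13 of arginine synthesis 2 were higher (*ARG1* and *ARG3*). *ARG1*, argininosuccinate synthetase, had 624, 685 and 546 CPM in WT + IB + Trp and 99, 82.6 and 100.1 CPM in WT + Trp (log2 fold change 2.72 ± 0.16, SE; edgeR adjusted p = 1.35e-12). *BAT2*, the cytosolic branched-chain aminotransferase through which valine enters the route to isobutanol, had 1997, 2063 and 2181 CPM in WT + IB + Trp, against 691, 795 and 666 CPM in WT + Trp. Both were separated between the groups. In serine, glycine and one-carbon metabolism 8 of 15 genes were higher and 1 lower, with the glycine decarboxylase subunits *GCV1* and *GCV3* up by 2.44 and 2.40 and the hydroxymethyltransferase *SHM2* by 2.34. Lysine synthesis had 1 gene higher (*LYS12*) and 2 lower (*LYS4* and *LYS1*) of 9. Without replicate 2 of WT + IB + Trp lysine synthesis had 0 higher and 1 lower, and with library totals *LYS12* was not called. Histidine synthesis had 1 higher (*HIS2*) of 7, which include the locus that joins the deleted *HIS3* with *DED1* and does not read *HIS3*. The glutamate, glutamine and proline list had 3 higher (*PRO2*, *PRO1* and *GLN1*) of 9. *GLN1*, glutamine synthetase, had 1403, 1329.7 and 1997 CPM in WT + IB + Trp and 604, 865 and 642 CPM in WT + Trp. The nitrogen regulator *GLN3* had a log2 fold change of -0.36.

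Of 14 genes of purine synthesis 9 were higher and 0 lower, with a median log2 fold change of 1.22. *ADE13*, adenylosuccinate lyase, had 393, 432 and 349 CPM in WT + IB + Trp and 88.2, 99.7 and 87.4 CPM in WT + Trp (log2 fold change 2.09 ± 0.10, SE; edgeR adjusted p = 4.79e-14), and *ADE1* had 347, 427 and 283 CPM in WT + IB + Trp, against 72.9, 97.8 and 78.6 CPM in WT + Trp. Both genes were separated between the groups. Their upstream sequences are shown because both hold TGACTC, the core of the site bound by Gcn4, the activator of amino acid and purine synthesis genes. They run from 250 to 91 bases before the start codon in R64, at chrXII:844032-844191 (plus strand) and chrI:169125-169284 (plus), and capitals mark TGACTC or its reverse complement GAGTCA.
ADE13: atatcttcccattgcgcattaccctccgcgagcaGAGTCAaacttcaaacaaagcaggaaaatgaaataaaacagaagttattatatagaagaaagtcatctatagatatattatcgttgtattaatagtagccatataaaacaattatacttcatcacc
ADE1: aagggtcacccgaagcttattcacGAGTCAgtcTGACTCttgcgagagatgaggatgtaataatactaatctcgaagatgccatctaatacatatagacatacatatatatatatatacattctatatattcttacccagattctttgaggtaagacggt
The core was found within 250 bases before 7 of 14 purine genes, 6 of 9 aspartate family genes and 7 of 13 arginine genes, against 6.25% of 6001 promoters. Among the loci called higher 8.39% held it, and among those called lower 6.19%. It was also found before 7 of 35 genes of the sulfate and methionine list, 6 of 35 of the nitrogen catabolite repression list and 3 of 136 ribosomal protein genes. *GCN4* itself was not called (log2 fold change 0.13), and a role of Gcn4 was not tested. For this and the other motifs a match describes the letters and is not evidence of a bound site.

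Sulfur and nitrogen genes split. Of 34 loci of sulfate assimilation and methionine 5 were higher and 6 lower. *SSU1* had 1462, 878 and 1451 CPM in WT + IB + Trp and 127, 116 and 119 CPM in WT + Trp (log2 fold change 3.39 ± 0.18, SE; edgeR adjusted p = 1.82e-13), and *SAM1*, an S-adenosylmethionine synthetase, rose by 2.40. The sulfite reductase subunit *MET5* fell by 1.75 and *MET30*, *MHT1*, *MET28*, *MET1* and the transporter *SAM3* by between 1.28 and 1.45. BY4741 lacks *MET17*, which follows sulfite reduction, in both groups. Of 34 loci under nitrogen catabolite repression 4 were higher and 9 lower, and the share higher is near the 11.2% over all loci tested. The ammonium permease *MEP3* rose by 1.88, while the arginine catabolic genes *CAR1* and *CAR2* fell by 1.41 and 1.66 and the general permease *GAP1* by 1.40. *CAR2* had 124, 77.1 and 221 CPM in WT + IB + Trp and 483, 400.0 and 451 CPM in WT + Trp. Without replicate 2 of WT + IB + Trp, 3 of the list were higher and 5 lower. The GATA core GATAAG was found before 18 of 35 genes of the list, against 12.5% of 6001 promoters.

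Of 23 genes of stationary phase and dehydration 15 were lower and 0 higher, with a median log2 fold change of -1.21, and they took 0.595%, 0.545% and 0.555% of the fragments in WT + IB + Trp, against 1.28%, 1.23% and 1.31% in WT + Trp. *FMP16* had 43.7, 25.1 and 42.9 CPM in WT + IB + Trp and 361, 428 and 425 CPM in WT + Trp, and *RTN2*, a reticulon of the endoplasmic reticulum, had 71.3, 43.7 and 83.1 CPM in WT + IB + Trp, against 687, 437 and 685 CPM in WT + Trp. The choice of the 12 largest falls fixed that both were separated between the groups. *SPG1* fell by 3.04, *GRE1* by 2.95 and *DDR2* by 2.64. Of 18 genes of trehalose and glycogen 5 were lower and 0 higher. Phosphoglucomutase *PGM2* had 441, 389 and 484 CPM in WT + IB + Trp and 1447, 1173 and 1343 CPM in WT + Trp (log2 fold change -1.59 ± 0.12, SE; edgeR adjusted p = 7.98e-11), and the glycogen branching enzyme *GLC3* had 712, 605 and 712 CPM in WT + IB + Trp, against 2011, 1679 and 1979 CPM in WT + Trp. Both of these genes hold the core of the stress response element, CCCCT, and their sequences from 250 to 91 bases before the start codon in R64 are shown for it, at chrXIII:477697-477856 (minus strand) and chrV:132870-133029 (plus), with CCCCT or its reverse complement AGGGG in capitals.
PGM2: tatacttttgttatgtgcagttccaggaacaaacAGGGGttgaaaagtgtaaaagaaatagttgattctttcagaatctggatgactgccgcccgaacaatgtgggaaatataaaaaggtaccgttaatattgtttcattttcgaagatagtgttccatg
GLC3: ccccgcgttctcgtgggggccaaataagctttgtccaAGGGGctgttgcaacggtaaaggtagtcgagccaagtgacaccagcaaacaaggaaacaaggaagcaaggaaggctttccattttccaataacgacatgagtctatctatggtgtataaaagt
The core was found within 250 bases before 30.3% of the loci called lower and 12.3% of those called higher, against 18.8% of 6001 promoters. It was found before 9 of 18 genes of trehalose and glycogen and 7 of 22 of the stationary phase list.

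Of 29 chaperone genes 7 were lower and 3 higher, and the list took 4.49%, 5.23% and 4% of the fragments in WT + IB + Trp, against 7.51%, 8.59% and 7.58% in WT + Trp. After *SSA3*, the small heat shock protein *HSP26* had 2410.3, 915 and 1553 CPM in WT + IB + Trp and 5544, 7002 and 5758 CPM in WT + Trp, and *HSP30*, *HSP12*, *HSP78*, *STI1* and *HSP104* fell by 1.79, 1.72, 1.60, 1.24 and 1.18. The 3 that rose were *AHA1*, an activator of Hsp90 (log2 fold change 2.06), and *SSB1* and *SSB2*, the Hsp70 chaperones that work on the ribosome. Of 31 oxidative stress genes 4 were lower, among them the catalase *CTT1* (92.3, 95 and 112 CPM in WT + IB + Trp, against 546, 389 and 583 CPM in WT + Trp), and 1 was higher, glutathione reductase *GLR1*. Of 34 proteasome genes 3 were lower and 0 higher, a share near the 8.56% over all loci, and of 33 genes of autophagy and vacuolar proteases 7 were lower and 0 higher, among them *ATG1* and *ATG9* with log2 fold changes of -1.38 and -1.39. Of 13 genes of glycerol metabolism 3 were lower and 1 was higher: *GPD1*, *GUT2* and *GPP2* fell by 1.86, 1.31 and 1.17, and *GPP1* rose by 1.38. The chaperones of the endoplasmic reticulum had 2 of 14 higher and 0 lower, and 1 higher with library totals.

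**Figure D3:**
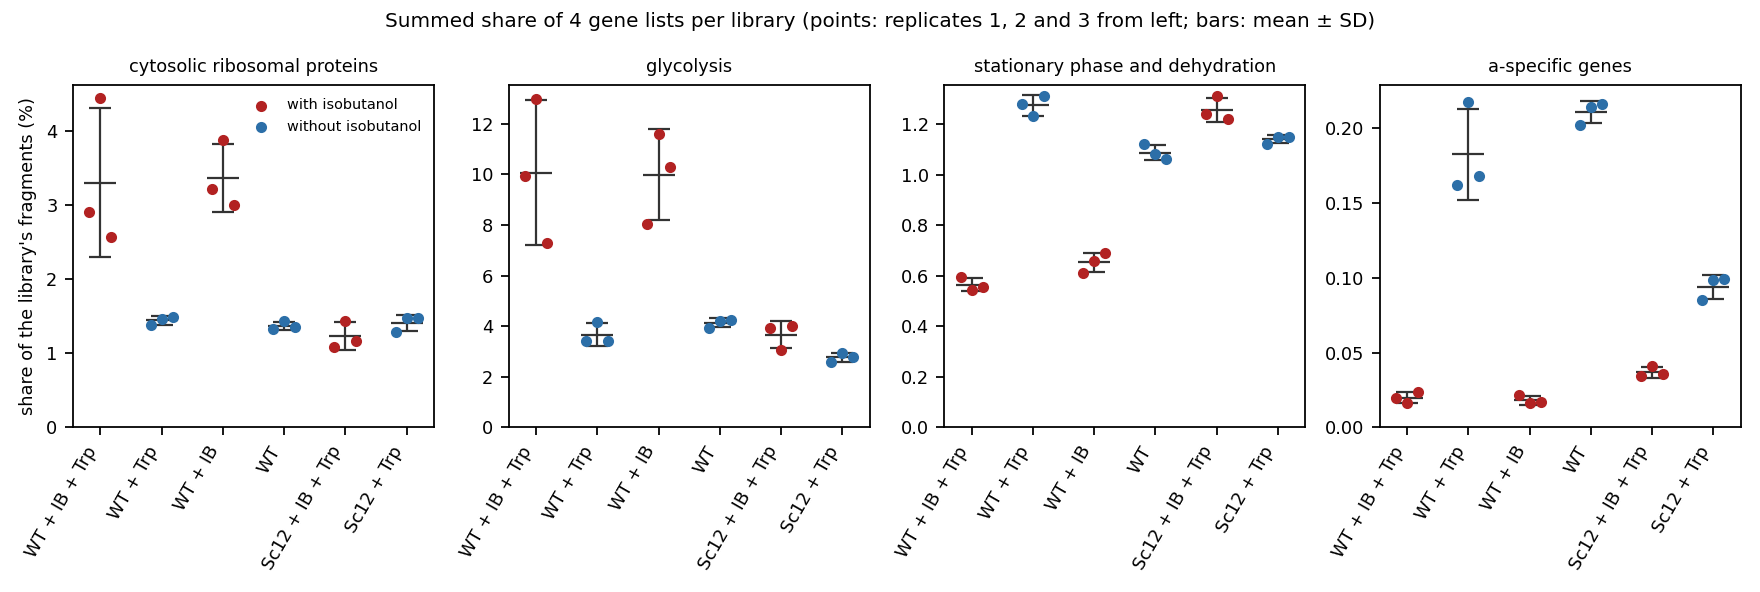
Share of each library's fragments (%) taken by 4 gene lists in WT + IB + Trp, WT + Trp, WT + IB, WT, Sc12 + IB + Trp and Sc12 + Trp; points are replicates 1, 2 and 3 from left, red with isobutanol and blue without, and bars give the mean and SD of 3 libraries. Ribosomal proteins took 2.9%, 4.44% and 2.56% in WT + IB + Trp and 1.08%, 1.44% and 1.16% in Sc12 + IB + Trp.

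In the pentose phosphate pathway 5 of 20 loci were higher and 5 lower. *GND1*, the main 6-phosphogluconate dehydrogenase, had 294, 332 and 299 CPM in WT + IB + Trp and 89.4, 94.2 and 95.4 CPM in WT + Trp (log2 fold change 1.73 ± 0.10, SE; edgeR adjusted p = 6.36e-13), and *SOL3*, *PRS4*, *PRS3* and transaldolase *TAL1* rose by 1.49, 1.33, 1.28 and 1.21. The second copies fell: *SOL4* had 72.4, 46.1 and 70.6 CPM in WT + IB + Trp and 597, 543 and 649.7 CPM in WT + Trp, *GND2* fell by 1.06 and *NQM1*, the second transaldolase, by 1.15. The locus that joins *TKL2*, the second transketolase, with *YBR116C* fell by 3.36. *TKL1* (log2 fold change 0.64), *RPE1* (0.62), *PRS1* (0.53), *PGM1* (0.40), *SOL2* (0.15) and *ZWF1* (-0.32), the first enzyme of the pathway, were not called. Copies of 1 enzyme thus moved in opposite directions at *GND1* and *GND2*, at *SOL3* and *SOL4*, and at *TAL1* and *NQM1*.

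Genes of respiration had few calls. Of 20 genes of the citric acid cycle 1 was higher (*IDP1*) and 1 lower, and of 36 subunits of oxidative phosphorylation 2 were higher and 1 lower. Without replicate 2 of WT + IB + Trp, 2 genes of the cycle and 4 of oxidative phosphorylation were higher. The isoforms of cytochrome c moved in opposite directions: *CYC1* had 129, 51.8 and 179 CPM in WT + IB + Trp and 41.4, 44.9 and 41.1 CPM in WT + Trp, and *CYC7*, the isoform of low oxygen, had 40.1, 33 and 46.6 CPM in WT + IB + Trp, against 279, 305 and 324 CPM in WT + Trp (log2 fold change -2.92 ± 0.14, SE; edgeR adjusted p = 4.99e-14). *ANB1*, also a low-oxygen isoform, had 93.4, 236 and 51.9 CPM in WT + IB + Trp and 8.01, 13.9 and 7.66 CPM in WT + Trp, so that genes named for low oxygen rose and fell. Gluconeogenesis and the glyoxylate cycle had 3 of 20 higher, among them *PCK1* (2179, 1661 and 1717 CPM in WT + IB + Trp, against 727, 583 and 652 CPM in WT + Trp), and 4 lower, among them *MDH2* (log2 fold change -1.48). Of these 20, 5 were higher when replicate 2 of WT + IB + Trp was left out. Of 5 loci of the mitochondrial genome 4 were higher, all with few fragments.

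The vitamin B6 genes *SNZ1* and *SNO1*, which are neighbours, rose by 2.96 and 2.19. *SNZ1* had 1103, 392 and 1226 CPM in WT + IB + Trp and 120.3, 114 and 116 CPM in WT + Trp, with replicate 2 the lowest of its group. Of 26 genes of thiamine and vitamin B6 4 were higher and 5 lower, namely *PHO3*, *THI21*, *THI22*, *THI7* and *THI20* of the thiamine branch. Of 28 iron uptake genes 2 were higher (*FIT2* and *FET4*) and 5 lower, led by the reductase *FRE2* (log2 fold change -1.53), and without replicate 2 of WT + IB + Trp 3 were higher and 3 lower. Of 29 drug and weak acid exporters 1 was higher, *PDR5* (875, 955 and 1138 CPM in WT + IB + Trp, against 504, 407 and 426 CPM in WT + Trp), and 4 were lower, *AQR1*, *PDR12*, *FLR1* and *TPO2*. Without that library 2 of the exporters were higher and 3 lower. Of 20 genes of phosphate starvation 2 were higher and 2 lower, but 5 were higher without replicate 2 of WT + IB + Trp and 1 with library totals. Calls in both directions were also found among 24 meiosis genes (3 higher and 2 lower), 14 PAU genes (3 and 1) and 74 small nucleolar RNAs (9 and 5). In all, 1307 of the loci tested were members of at least 1 of 55 lists, and 301 of them were higher and 141 lower.

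The same contrast without tryptophan gave similar calls. Without tryptophan 750 loci were higher in WT + IB than in WT (11.8% of those tested) and 564 were lower (8.89%). The 2 contrasts share no library. The 1005 loci called in both, all in the same direction, are 80.3% of the loci called with tryptophan and 76.5% of those called without. Of the 246 loci called with tryptophan alone, 239 had the same sign without it and 196 had an adjusted p below 0.05 there, and 4 differed by the test of the difference. For the loci called higher and lower with tryptophan, the median log2 fold change was 1.41 and -1.36 with tryptophan and 1.44 and -1.28 without. By lists, 102 ribosomal protein genes were higher with tryptophan and 109 without, and all 7 a-specific genes were lower in both. The stationary phase list had 15 lower members with tryptophan and 10 without.

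The difference between these responses was tested as an interaction. In it 0 loci were called higher (0%) and 8 lower (0.126%) by edgeR, 17 passed by adjusted p alone, 1051 had an unadjusted p below 0.05, and DESeq2 called 1 higher and 13 lower. The count rested on single libraries: it ran from 0 to 28 when 1 library was left out, with 0 calls without WT replicate 2, WT replicate 3 or WT + Trp replicate 3, and 28 without WT + IB replicate 1. The direction rested on them too, as without WT + IB replicate 1 13 loci were higher and 15 lower, and without WT + IB + Trp replicate 2 12 were higher and 15 lower. *SIP18*, a protein made on drying, had 3.72, 4.33 and 3.84 CPM in WT + IB + Trp and 69.8, 23.2 and 74.5 CPM in WT + Trp, and 7.09, 7.23 and 5.31 CPM in WT + IB and 20.5, 15.9 and 13.8 CPM in WT. Its log2 fold changes of -3.81 with and -1.34 without tryptophan differed by -2.47 ± 0.49 (SE; edgeR adjusted p = 0.0343). The level was higher in WT + Trp than in WT in every library, and replicate 2 was the lowest of WT + Trp. *SPG1* differed by -1.42, *DPA10* by -1.35, *FMP48* by -1.28 and *YKL107W* by -1.23, and *HXT5*, *NCE101* and *PAI3* were called as well. *DPA10* rose in both contrasts, by 1.46 with and 2.81 without tryptophan.

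**Figure D4:**
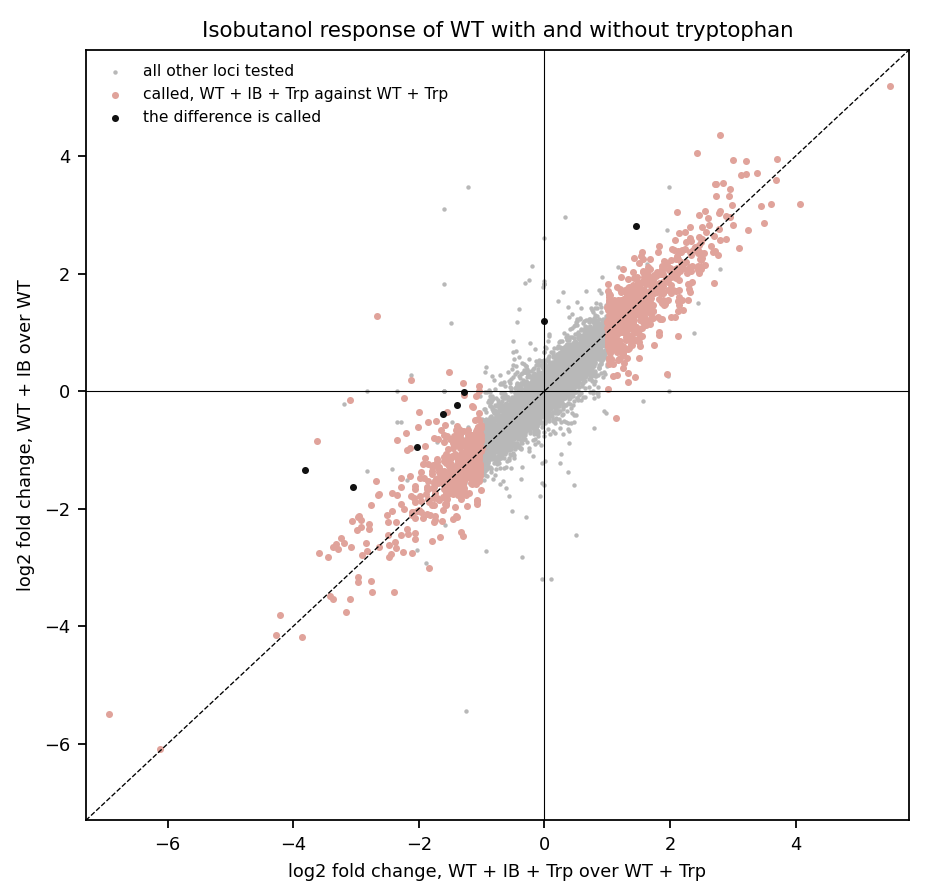
Log2 fold change of WT + IB + Trp over WT + Trp (horizontal) against that of WT + IB over WT (vertical) for the 6346 loci tested; pale red points were called with tryptophan, black points are the 8 loci whose difference was called, and the dashed line marks equal values. The called loci lie along the dashed line, and 0 of them were called in opposite directions.

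In tryptophan-fed Sc12 the response to isobutanol differed more. There 630 loci were higher in Sc12 + IB + Trp than in Sc12 + Trp (9.93% of those tested) and 509 lower (8.02%). Of the 1251 loci called in WT, 342 were called in the same direction in Sc12 (27.3% of the calls in WT and 30% of those in Sc12) and 32 in the opposite direction. Tested as an interaction, the response of WT was higher than that of Sc12 at 736 loci (11.6%) and lower at 702 (11.1%). The library of Sc12 + Trp replicate 1 was marked by the submitters as a make-up library, and with any 1 library left out the counts stayed at 659 to 782 higher and 665 to 741 lower. With limma on log2(FPKM + 1) they were 281 higher and 533 lower. Over the loci called higher and lower in WT, the median log2 fold change was 1.41 and -1.36 in WT and 0.54 and -0.55 in Sc12.

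The lists differed in how far they separated the strains. Of the 137 ribosomal protein genes 102 were higher in WT, and in Sc12 5 were higher and 11 lower, with medians of 1.47 and 0.02, and at 105 of the 137 the response of WT was higher by the interaction. *RPL3* had a log2 fold change of 2.79 in WT and 0.86 in Sc12 (difference 1.93 ± 0.32, SE; edgeR adjusted p = 2.14e-05). Of 69 ribosome biogenesis factors the response of WT was higher at 32 and lower at 1, and 19 were lower in Sc12. The strains differed in this list without isobutanol. It took 0.596%, 0.586% and 0.6% of the fragments in Sc12 + Trp, against 0.387%, 0.37% and 0.4% in WT + Trp. With isobutanol the shares overlapped, at 0.321%, 0.443% and 0.347% in Sc12 + IB + Trp and 0.353%, 0.431% and 0.395% in WT + IB + Trp. Glycolysis had 13 of 24 with a higher response in WT, purine synthesis 10 of 14, aminoacyl-tRNA synthetases 8 of 20, and cyclins 7 of 18. *CLN2* had a log2 fold change of 2.46 in WT and 0.13 in Sc12, where it had 46.5, 48.7 and 43.7 CPM in Sc12 + IB + Trp and 38.7, 44.5 and 43.6 CPM in Sc12 + Trp. All 7 a-specific genes fell more in WT than in Sc12, where 4 were called lower, and *STE2* fell by 3.36 in WT and by 1.84 in Sc12. The levels of *STE2* in Sc12 + Trp, at 305, 393 and 399.8 CPM, were also under those of WT + Trp. The kynurenine list differed less, with 2 of 21 responses higher in WT and 1 lower, and *BNA4* rose by 2.94 in WT and 2.36 in Sc12.

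Among the named genes the response of WT exceeded that of Sc12 by most at *YJL218W*, which rose by 3.71 in WT and had 1.59, 1.44 and 1.98 CPM in Sc12 + IB + Trp and 3.32, 3.56 and 3.07 CPM in Sc12 + Trp (difference 4.69 ± 0.46, SE; edgeR adjusted p = 1.24e-08). *TIR1* had a log2 fold change of 3.60 in WT and -0.12 in Sc12, a difference of 3.72. *YAL037C-B*, *YDL228C* and *YKL153W* differed by 3.78, 3.46 and 3.45. They overlap *CDC19*, *SSB1* and *GPM1*, whose own differences were 1.62, 2.12 and 1.15, and their fragments cannot be told apart from those of the partner. In the other direction *SPG1*, needed in stationary phase, fell by 3.04 in WT and rose by 1.09 in Sc12, with 275, 329.9 and 254 CPM in Sc12 + IB + Trp and 120.3, 141 and 142 CPM in Sc12 + Trp. *SGA1*, a glucoamylase of sporulation that degrades glycogen, had 46.6, 50.7 and 46.6 CPM in WT + IB + Trp and 418, 319.7 and 478 CPM in WT + Trp, whereas in Sc12 it had 573, 585 and 412 CPM with isobutanol and 475, 511 and 498 CPM without. *SIP18*, *YOR186W* and *FIG1* differed by -3.22, -3.36 and -3.19. *FIG1* was low in Sc12 in both groups, at 9.63, 11.6 and 9.98 CPM with isobutanol and 4.21, 7.33 and 5.58 CPM without.

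**Figure D5:**
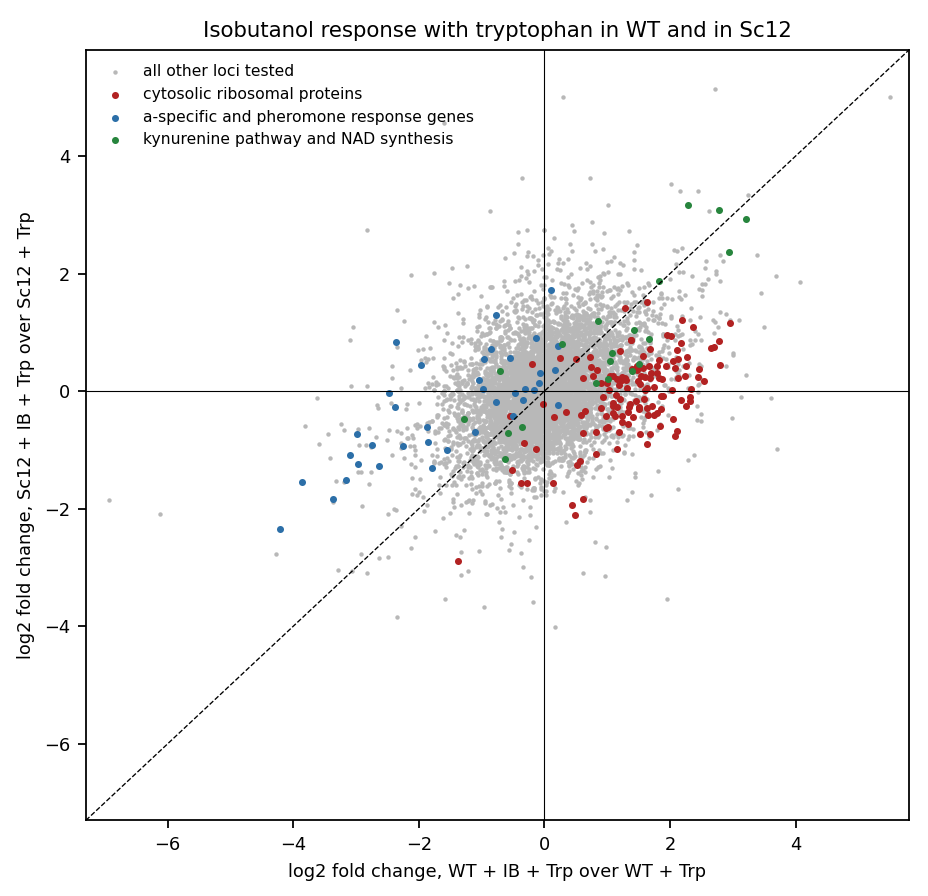
Log2 fold change of WT + IB + Trp over WT + Trp (horizontal) against that of Sc12 + IB + Trp over Sc12 + Trp (vertical) for the loci tested; red points are cytosolic ribosomal proteins, blue points a-specific and pheromone response genes, green points kynurenine pathway and NAD synthesis genes, and the dashed line marks equal values. Most red points lie right of the dashed line near 0 on the vertical axis, with medians of 1.47 in WT and 0.02 in Sc12.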

How the data were processed

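RNA was sequenced from 24 libraries, of which the 3 of WT + IB + Trp and the 3 of WT + Trp are compared. Per the submitters' processing notes, bcl2fastq 2.18, Trimmomatic 0.39 (trimming), TopHat2 2.1.1 (alignment to sacCer3) and Cufflinks 2.2.1 (values per locus) were used; the annotation and the strand setting are not given in the sources used here. The values deposited by the authors are, for each locus in each library, an estimated count of fragments, not scaled (98.83% lie within 0.001 of a whole number), and an FPKM, which the authors scaled by length and library size. The authors' own fold changes and p-values were not used. Library numbers in the table start 1 below those of the labels and were matched by number.

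Of 6929 loci, 24 with a failed estimate were left out, and 6346 of the other 6905 were tested, those whose FPKM averaged 1 or more across the 24 libraries. Rounded fragments were fitted with edgeR 4.0.16 in R 4.3.3 (quasi-likelihood, TMM, 8 group means, all 24 libraries, 16 residual degrees of freedom). A call needed an adjusted p (Benjamini-Hochberg over all loci tested) below 0.05 and a log2 fold change beyond 1 in either direction, as in the study. Interactions were contrasts of the same fit. The SE of a log2 fold change was derived from the test, as its absolute value divided by the square root of the F statistic. The fit was tested on simulated data for WT + IB + Trp against WT + Trp over 6346 loci, with 100 loci changed at each fold. Of 4-fold changes 100% were called and of 2-fold changes 60% (95% by adjusted p alone), with 0 false calls. The simulated spread was that of the fit itself and far fewer loci changed than in the data. The count of false calls therefore does not carry over to the data. Exact permutation of 3 against 3 libraries cannot go below p = 0.1, so single genes carry edgeR's p.

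Genes were named by rule: the 12 largest rises and falls among called single-gene loci of at least 10 CPM whose libraries do not overlap, up to 4 called members of each list, the 5 largest differences each way per interaction, and genes of the study. Some genes that the rule named are not reported here. The members and lists were chosen with earlier results of these data known. Of 7021 systematic names, 5984 matched the reference annotation R64, and 91.28% of single-gene loci had its coordinates; 102 loci join genes and 1088 overlap another, and overlapping loci share coordinates. Promoters were the 250 bases before the start codon of 6001 genes. Alternatives were library totals, DESeq2 size factors, DESeq2 1.42.0, limma 3.58.1 on log2(FPKM + 1), other filters, the groups of the contrast alone, a replicate block and leaving out each library; list counts without WT + IB + Trp replicate 2 were added after seeing the data. Figures were drawn with matplotlib 3.10.9, and Python 3.11.15 with pandas 2.3.3 and numpy 2.4.6 read the tables.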

Additional observations from a re-analysis of the deposited data

Results flagged for a closer look

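The response of WT to isobutanol differed between the states with and without tryptophan at 8 loci, by the interaction term of the edgeR fit. All 8 differences were negative in the fit of all libraries, but with 1 library left out 0 to 13 loci had a positive difference and 0 to 16 a negative one. The named differences on the log2 scale were -2.47 for *SIP18*, -1.42 for *SPG1*, -1.35 for *DPA10*, -1.28 for *FMP48* and -1.23 for *YKL107W*. With tryptophan present, the response of WT differed from that of Sc12 at 1438 loci by the same kind of term. The response of WT was the higher one at *YJL218W* by 4.69, at *YAL037C-B* by 3.78, at *TIR1* by 3.72, at *YDL228C* by 3.46 and at *YKL153W* by 3.45. It was the lower one at *SPG1* (-4.13), *YOR186W* (-3.36), *SIP18* (-3.22), *FIG1* (-3.19) and *SGA1* (-3.16). *YAL037C-B*, *YDL228C* and *YKL153W* overlap highly expressed genes, so what they measure cannot be told apart from these partners.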

How the results depend on the processing

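The counts for WT + IB + Trp against WT + Trp stayed within 1.5 times under every alternative run: 621 to 702 loci higher and 462 to 641 lower, and 658 to 744 higher and 512 to 606 lower when 1 library was left out. The interaction with tryptophan in WT did not hold: 8 loci by edgeR became 14 with the DESeq2 Wald test, 0 with limma on log2(FPKM + 1) and 0 in a fit of the 4 groups alone, and 0 to 28 when 1 library was left out. With limma on log2(FPKM + 1), 317 loci in place of 509 were lower in Sc12 with tryptophan, and the response of WT was higher than that of Sc12 at 281 loci in place of 736. The deposited FPKM of WT + Trp replicate 3 lay 0.806 from the other 2 libraries of its group on this log2 scale, against 0.43 and 0.498 for those; the cause of the lower counts was not tested. With the replicate number as a block 702 loci were higher and 547 lower, and the interaction again gave 8. Same-numbered libraries of WT + IB + Trp and WT + Trp deviated together with r of 0.067, 0.162 and -0.016 across loci, so the numbers do not pair them. Of 221 named genes that were called, 9 were not tested at a minimum mean of 10 FPKM, 181 of the other 212 were called under every alternative run, and 0 changed direction. Fold changes near 1 on the log2 scale are limited by the threshold, as the share of simulated 2-fold changes called was 60%. Low loci such as *ERR3* or those of the mitochondrial genome rest on few fragments.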

Other observations

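The loci that fell furthest relative to WT + Trp were *YCL074W* (chrIII:2824-3750) and *YCL076W* (chrIII:1392-2566), near the left end of chromosome III. They were chosen after their values were seen and lie outside the rule for named genes. *YCL074W* had 0.191, 0 and 0 CPM in WT + IB + Trp and 9.23, 10.4 and 8.65 CPM in WT + Trp. *YCL076W* had 0.191, 0 and 0 CPM in WT + IB + Trp and 5.42, 5.27 and 5.32 CPM in WT + Trp. Among the 1251 called loci, replicate 3 of WT + IB + Trp was the library of its group nearest to WT + Trp at 726, replicate 2 at 313 and replicate 1 at 212.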
